A study of Caenorhabditis elegans with 2 samples.

Results

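The cytosolic ribosomal protein genes of Caenorhabditis elegans were examined in ChIP-seq peak lists of NFYA-1, and most of them lay in long stretches of genome without a peak. The genes were all protein-coding genes of the Ensembl annotation of WBcel235 with a symbol that starts with rpl- or rps- followed by a number. This rule gave 78 of 19973 nuclear protein-coding genes, 47 of the large subunit (rpl) and 31 of the small subunit (rps). NFYA-1, the worm A subunit of the transcription factor NF-Y, was immunoprecipitated through an antibody against GFP from sonicated chromatin of whole worms. The 2 samples were biological replicates of 1 group, young adult hermaphrodites of strain OP404, with the genotype unc-119(tm4063) III; wgIs404. This is a single transgenic line that stably expresses NFYA-1 with a C-terminal GFP-FLAG tag, and the age of the worms is given as unknown. A single control file served both replicates and is not analysed here, and no untagged or mutant group is among the samples, so no comparison between groups could be made.

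Ribosomal proteins assemble with ribosomal RNA into the large and small subunits of the ribosome, and their genes are among the most strongly transcribed of a growing cell. NF-Y is a complex of several subunits that binds the sequence CCAAT, a common element of promoters in animals. The A subunit makes the contact that reads this sequence, while its partners hold the DNA through histone-like folds.

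Peaks were taken from a list made on both replicates pooled and from a list of each replicate. Each list holds 30000 peaks and includes background. A peak was assigned to a gene when its summit, the position of its highest signal, lay in the gene or from 1000 bp upstream to 200 bp downstream of an annotated start. The sequences from 50 bp before to 50 bp after pooled summits show what the peaks at ribosomal protein genes cover. They are on the forward strand of ce11, and capitals mark CCAAT or its reverse complement ATTGG. The 6 shown are examples from the gene's own coding exon (rps-4, rpl-26 and the first of rps-22), the coding exon of a neighbour (rps-9), an intron of a neighbour (the second of rps-22, in polh-1), and DNA upstream of the gene outside any other (rps-27). Windows with untranslated bases are not shown, and rpl-28 also had a weaker summit in its own untranslated exon.
rps-4, chrIV:7084045-7084145: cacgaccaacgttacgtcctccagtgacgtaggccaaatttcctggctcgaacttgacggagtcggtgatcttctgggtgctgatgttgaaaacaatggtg
rpl-26, chrII:8603179-8603279: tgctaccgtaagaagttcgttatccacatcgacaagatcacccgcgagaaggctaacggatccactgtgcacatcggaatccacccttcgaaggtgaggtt
rps-22, chrIII:1951025-1951125: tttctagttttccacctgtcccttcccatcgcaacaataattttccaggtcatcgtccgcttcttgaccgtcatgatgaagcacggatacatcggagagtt
rps-22 upstream, chrIII:1949665-1949765: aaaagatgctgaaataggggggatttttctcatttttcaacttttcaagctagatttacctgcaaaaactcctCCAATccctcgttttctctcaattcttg
rps-9, chrII:11127036-11127136: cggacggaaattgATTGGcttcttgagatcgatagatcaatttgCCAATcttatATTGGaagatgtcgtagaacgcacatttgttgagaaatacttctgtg
rps-27, chrV:104082-104182: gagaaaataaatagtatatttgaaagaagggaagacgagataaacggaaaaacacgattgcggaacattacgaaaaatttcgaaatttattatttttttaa

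The sequence at rps-9 holds 3 copies of CCAAT or ATTGG, the one upstream of rps-22 holds 1, and the other 4 hold none. The windows at rps-4, rpl-26 and rps-9 are coding over their full length, that in rps-22 over 53 bases, that upstream of rps-22 over 42, and that at rps-27 over 0. The rps-9 window belongs to the coding sequence of lsm-1, which encodes an Lsm protein that in yeast acts in mRNA decapping, and lies 724 bp upstream of the start of rps-9.

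Few ribosomal protein genes had a peak. In the pooled list 12 of 78 had at least 1 assigned peak, which is 15.4% (exact 95% binomial interval 8.21% to 25.3%), against 58.9% of the 19895 other nuclear protein-coding genes. In replicate 1 the count was 17 of 78, or 21.8%, against 60.4% of the others. In replicate 2 it was 14 of 78, or 17.9%, against 59.4%. In each of the 3 lists the share was therefore below that of the other genes. The interval covers the counting of genes only, and neighbouring genes can share a peak or lack one together.

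Ribosomal protein genes are short, and a short gene offers less room for a summit. Their spans, meaning the gene joined with its start windows, had a median of 1753.5 bp (1276 to 2734 bp), against a median of 3033 bp for the other genes. Of the 7950 other genes within that same range of spans, 51.1% had a pooled peak. Each ribosomal protein gene was also set beside the other genes with a span at most 25% longer or 20% shorter than its own and a share of coding bases within 10 percentage points, a median of 1488.5 genes of like length and coding content. A mean of 49.2% of these like genes had a pooled peak, which over the 78 ribosomal protein genes adds up to 38.4 genes, against the 12 observed. The like genes gave means of 49.5% in replicate 1 and 49.4% in replicate 2.

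**Figure D1:**
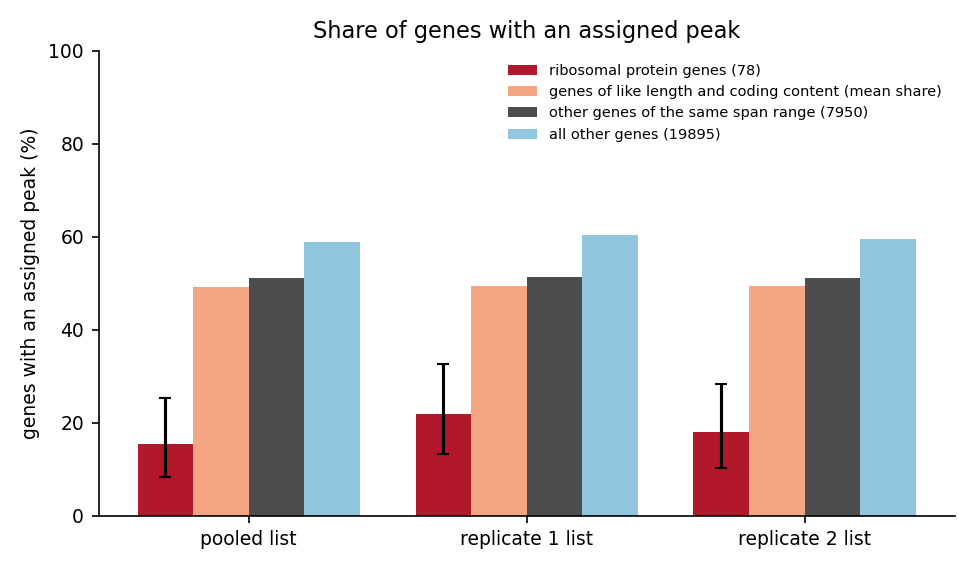
Share of genes with an assigned peak (%) in each list, for the 78 ribosomal protein genes, the genes of like length and coding content, the 7950 other genes of the same span range and all 19895 other genes; error bars on the first are exact 95% binomial intervals. The ribosomal protein genes sit at 15.4%, 21.8% and 17.9%, and all other bars lie between 49.2% and 60.4%.

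Both subunits had low counts. Of the 47 large subunit genes, 6 had a peak in the pooled list, 8 in replicate 1 and 6 in replicate 2. Of the 31 small subunit genes, 6 had a peak in the pooled list, 9 in replicate 1 and 8 in replicate 2. The difference between the subunits was not tested. By chromosome, a pooled peak was found at 5 of 23 ribosomal protein genes on chromosome I, 2 of 10 on II, 1 of 18 on III, 2 of 17 on IV, 2 of 8 on V and 0 of 2 on X, against 51.5% to 62.8% of the other genes of each chromosome.

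Peaks of replicates 1 and 2 that overlap by 1 bp or more were found at 9 of 78 ribosomal protein genes, against 38.9% of other genes and a mean of 27.6% of genes of like length and coding content. A peak in at least 1 of the 3 lists was found at 22 of 78, against 70.5% of other genes. Of these 22, 8 had one in all 3 lists, or 10.3% of the 78. The share with one in all 3 was 47.4% of other genes and a mean of 33.6% of like genes. No ribosomal protein gene had a peak in the final list of 97 peaks that the authors thresholded for reproducibility, which reached 0.392% of other genes. The remaining 56 had no peak in any of the 3 long lists, among them rps-0, rps-1, rpl-1 and rpl-2.

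The strength of the few peaks that were present ran from near the top of the list to near its end. Ranks refer to the signal value that the authors' peak caller wrote for each peak, where 1 is the strongest of 30000. That signal is on a scale not given in the sources used here and is compared only within a list. Among the 1000 strongest pooled peaks, 3 of 78 ribosomal protein genes had one, or 3.85%, against 4.58% of other genes and 2.39% of like genes, so at the top of the list their share was near the background. In replicate 1 the same count was 1, against 4.56% of other genes and 2.01% of like genes. In replicate 2 it was 2, against 4.52% and 2.61%.

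The 6 small subunit genes with a pooled peak include both of the highest ranks. At rps-6 (chromosome I, 13952161 to 13953203), whose product is the ribosomal substrate of S6 kinase in mammals, the best signal was 35.5 in the pooled list (rank 186), 16.8 in replicate 1 (rank 176) and 22.6 in replicate 2 (rank 393). This was the highest value at a ribosomal protein gene in each of the 3 lists. Its pooled summit lay in its own coding exon, 20 bp upstream of an alternative start, with a CCAAT centred 19 bp from the summit. At rps-4 (chromosome IV, 7083696 to 7084682), a small subunit protein gene, the signal was 31.7 in the pooled list (rank 487), 8.47 in replicate 1 (rank 10260) and 20.1 in replicate 2 (rank 912). The peak is thus far down the replicate 1 list and near the top of the replicate 2 list.

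At rps-2, for a protein at the mRNA entry of the small subunit, the best pooled signal was 27.7 (rank 1420), with 9.68 in replicate 1 (rank 6047) and 19.4 in replicate 2 (rank 1152). The best pooled summit lay 792 bp upstream of the gene in a coding exon of C49H3.12. A second, in the gene's own coding exon, had a signal of 25.1 (rank 2835). The replicate 2 value belongs to a peak that overlaps this second one. At rps-22, a small subunit protein gene, 3 pooled peaks had signals of 21.8, 21.2 and 15.9, the stronger pair in its own coding exons and the weakest in an intron of polh-1. The second of these had its summit at position 1951075 of chromosome III in the pooled list and at 1951076 in replicate 1. The overlapping replicate 2 peak had its summit at 1951174 (rank 14230). The best replicate 2 peak of rps-22 lay in a coding exon of polh-1 (rank 13417).

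At rps-9, for another protein at the mRNA entry, the pooled signal was 22.1 (rank 5598) and the replicate 2 signal 13.2 (rank 9519), and replicate 1 had no peak. At rps-27, for a zinc-binding small subunit protein, the pooled signal was 20.4 (rank 8168), the replicate 1 signal 6.68 (rank 20396) and the replicate 2 signal 13.4 (rank 8870). Of the 12 best pooled summits, this was the only one upstream of a gene and outside every protein-coding gene, 55 bp before the start.

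The 6 large subunit genes with a pooled peak include 4 whose proteins ring the exit of the tunnel through which the new protein chain leaves: rpl-19, rpl-26, rpl-25.2 and rpl-17. At rpl-19 (chromosome I, 5484779 to 5486354) the signal was 29.5 in the pooled list (rank 908) and 10.05 in replicate 1 (rank 5139), and replicate 2 had no assigned peak. At rpl-26 it was 24.2 in the pooled list (rank 3437), 12.4 in replicate 1 (rank 1753) and 14.2 in replicate 2 (rank 6931). A peak in all 3 lists was also present at rpl-25.2, with signals of 23.2 in the pooled list (rank 4393), 7.32 in replicate 1 (rank 16186) and 16.2 in replicate 2 (rank 3608). The replicate 1 value there belongs to a summit 804 bp upstream, in an untranslated exon of C34B7.1, and not to the pooled summit. At rpl-17 the pooled signal was 19.5 (rank 10009) and the replicate 2 signal 16.04 (rank 3844), with no peak in replicate 1.

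At rpl-28, a large subunit gene with no counterpart in budding yeast, the signal was 22.4 in the pooled list (rank 5270), 12.4 in replicate 1 (rank 1759) and 13.98 in replicate 2 (rank 7533). The best summits of the 3 lists differ in place. The pooled one is in the gene's own coding exon, the replicate 1 one in a coding exon of mrpl-49. The replicate 2 one is in the gene's untranslated exon. Weaker peaks overlap the pooled one in both replicates, with summits in the gene's own intron in replicate 1 (rank 2254) and its own coding exon in replicate 2 (rank 17313). At rpl-30, whose yeast counterpart binds its own transcript, the pooled peak was among the weakest of the list, with a signal of 14.5 (rank 25599), and lay in an intron of pab-1, the gene of a poly(A)-binding protein. The replicate 1 peak was stronger within its list, at 9.86 (rank 5594), and a replicate 2 peak that overlaps the pooled one (rank 5407) had its summit outside the assigned span.

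**Figure D2:**
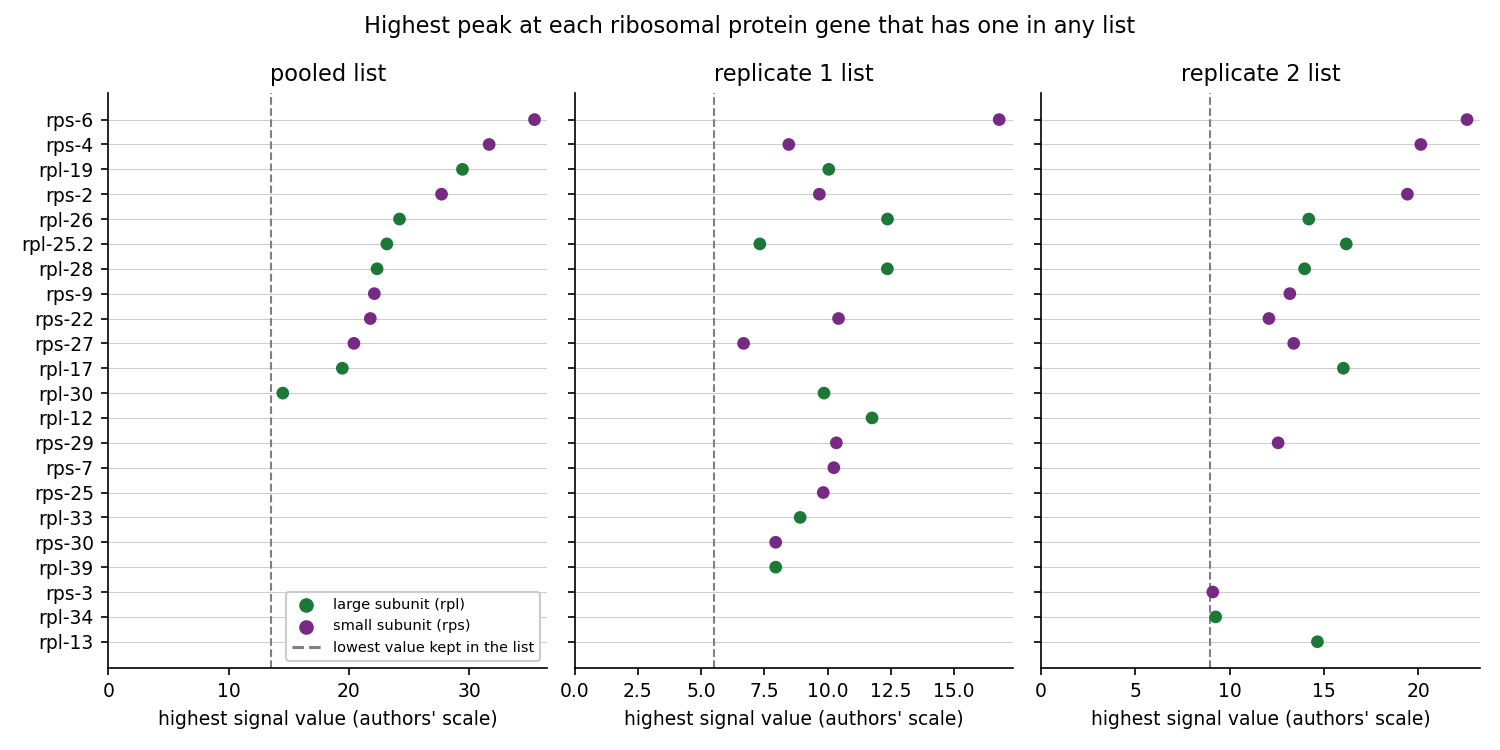
Highest signal value (authors' scale, a separate axis for each list) at the 22 ribosomal protein genes with a peak in any list; green points are large subunit genes, purple points small subunit genes, and the dashed line is the lowest value kept in that list. rps-6 is highest in every list, at 35.5, 16.8 and 22.6, and 10 of the 22 genes have no point in the pooled panel.

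A further 10 ribosomal protein genes had a peak in a replicate list and none in the pooled list. They belong to the gene set examined, but the choice of which genes to name in the text does not cover them. They are named here after their values were seen. The strongest in replicate 1 was rpl-12 (rank 2367), for a protein at the base of the ribosomal stalk, with its summit in a coding exon of lin-54. It was followed by rps-29 (rank 4442), rps-7 (rank 4703), rps-25 (rank 5661) and rpl-33 (rank 8598). The neighbours rps-30 and rpl-39 were assigned the same replicate 1 peak (rank 12662). In replicate 2 they were rpl-13 (rank 6057), rps-29 (rank 11536), rpl-34 (rank 27298) and rps-3 (rank 28624). Only rps-29 of these had a peak in both replicates.

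Signals of the 2 replicates were loosely related. Over the 9 ribosomal protein genes with a peak in both, Spearman's rho of the best signals was 0.117, against 0.282 over 9935 other genes, as a description across genes of the same 2 libraries. A gene's best signals can come from different peaks in the 2 replicates, as they did at rpl-25.2, rpl-28, rps-2 and rps-22. The ranks of the best signals differed most at rpl-25.2, rps-27 and rps-4. Over all 78 genes, the median percentile of the best pooled signal among like genes was 25.6, with 25.8 in replicate 1 and 25.9 in replicate 2. Since genes without a peak are tied at the bottom, this median is set by the share of like genes without a peak. Over the 12 genes with a pooled peak, compared only with like genes that also had one, the median percentile was 77.3 (12.5 to 98.3), with 78.2 (26.9 to 99.2) over 17 genes in replicate 1 and 65.9 (2.36 to 97.1) over 14 in replicate 2. The medians were thus above the middle of the like genes with a peak, with a wide range in each list. The lowest value was at rpl-30 in the pooled list, at rps-27 in replicate 1 and at rps-3 in replicate 2.

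Where the summits lay did not set the ribosomal protein genes apart from other genes with a peak in a way that held over the lists. The best pooled summit was in the gene's own coding exon at 8 of 12 genes (exact 95% binomial interval 34.9% to 90.1%), against 52.0% of other genes with a peak. In replicate 1 it was 6 of 17, against 50.1%, and in replicate 2 it was 7 of 14, against 50.98%, so the direction turned in replicate 1. In the pooled list it was in a coding exon of another gene at 2, rps-2 and rps-9, in an intron of another gene at 1, rpl-30, and outside protein-coding genes at 1, rps-27. A CCAAT on either strand within 50 bp of the best pooled summit was found at 3 of 12, rps-6, rpl-25.2 and rps-9, against 22.5% of other genes with a peak, so this share was near the background. In replicate 1 it was 2 of 17, against 23.2%, and in replicate 2 it was 4 of 14, against 22.3%.

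Summits were sparse in the coding exons and upstream of the ribosomal protein genes, while the introns varied between lists. Their coding exons held 10 pooled summits in 38.2 kb, or 0.262 per kb, against 0.522 per kb in other genes of the same span range. Their introns held 0 pooled summits in 16.7 kb, against 0.279 per kb. In replicate 1 the introns held 4, or 0.240 per kb, against 0.307 per kb in the same span range and 0.215 per kb in all other genes, and in replicate 2 they held 2, or 0.120 per kb, against 0.288 per kb in the same span range. The 1000 bp upstream of the first start held 1 summit in the 44.7 kb that lie outside genes, or 0.0224 per kb, against 0.239 per kb, and the count there was also 1 in each replicate.

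The sequence CCAAT, on either strand, was present from 250 bp before to 50 bp after the first start of 27 of 78 ribosomal protein genes, or 34.6%, against 45.6% of other genes and 46.2% of those of the same span range. It was present at 16 of 47 large subunit genes and at 11 of 31 small subunit genes. Of the 12 genes with a pooled peak 4 had it, and of the 66 without a pooled peak 23 had it. A match is a description of these letters and not a binding site. The spans of ribosomal protein genes had a median GC content of 39.1%, against 35.7% for the other genes, and its part in the counts was not tested; with GC content also held within 2 percentage points, the median pooled percentile among like genes was 25.7.

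The scarcity of summits reached well beyond the genes. Counted from the first annotated start, pooled summits around ribosomal protein genes numbered 0.0897 per kb from 1 kb upstream to the start and 0.167 per kb in the first 1 kb downstream, against 0.294 and 0.403 per kb for other genes of the same span range. From 5 to 1 kb upstream the density was 0.147 per kb against 0.327, and from 1 to 5 kb downstream 0.125 against 0.330. From 10 to 5 kb upstream it was 0.187 against 0.319 and from 5 to 10 kb downstream 0.141 against 0.323. Beyond 10 kb the values came close to each other, with 0.288 against 0.319 from 20 to 10 kb upstream and 0.277 against 0.320 from 10 to 20 kb downstream.

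**Figure D3:**
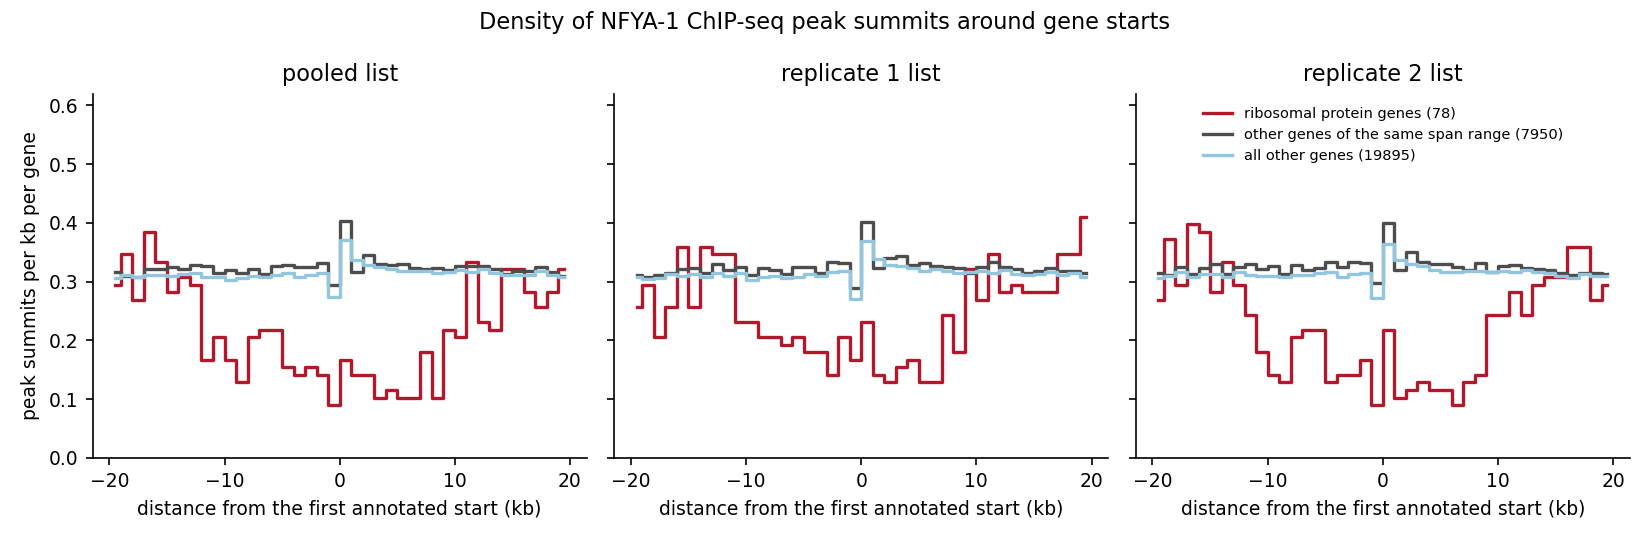
Peak summits per kb per gene (y axis) by distance from the first annotated start in bins of 1 kb out to 20 kb on either side (x axis, kb), for the ribosomal protein genes, other genes of the same span range and all other genes, in each list. Around ribosomal protein genes the pooled density is between 0.0897 and 0.218 per kb in all bins within 10 kb, against 0.294 to 0.403 per kb for other genes of the same span range.

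The flanks give a view that the assignment of peaks did not use. In the pooled list 55 of 78 ribosomal protein genes had no summit within 5 kb beyond either end of the span, or 70.5%, against 18.98% of other genes of the same span range. None of these 55 had a peak of its own, against 5.90% of 1509 such other genes. Of the 23 ribosomal protein genes with a summit in a flank, 12 had a peak, or 52.2%, against 61.7% of 6441 other genes of the same span range. The low count of peaks went with the empty flanks, and among genes with a summit nearby the shares lay closer together. Replicate 1 gave 0 of 48 genes without and 17 of 30 genes with a summit in a flank. Other genes of the same span range gave 5.63% and 60.5% there. Replicate 2 gave 1 of 54 and 13 of 24, against 5.57% and 61.3%.

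The stretch without a summit around the middle of each gene was then measured. This measure and its minimum of 20 kb were chosen after the data were seen. A summit in or near a gene shortens its stretch, so the measure is not independent of the count of peaks. Among genes without a pooled peak, the median distance from the span to the nearest pooled summit was 9747.5 bp for 66 ribosomal protein genes. It was 3759 bp for 8181 other genes and 2742.5 bp for 3890 of the same span range. In the pooled list 56 of 78 ribosomal protein genes lay in a summit-free stretch of 20 kb or more, or 71.8% (exact 95% binomial interval 60.5% to 81.4%). Of the other nuclear protein-coding genes 29.0% did, of those of the same span range 26.1%, and of like genes a mean of 25.7%. The count was 48 in replicate 1 and 56 in replicate 2, against 25.6% and 27.6% of other genes. In both replicates 46 of the 78 lay in such a stretch, or 58.97%, against 22.7% of other genes. The 46 are 95.8% of the 48 in replicate 1 and 82.1% of the 56 in replicate 2. For other genes these shares were 89.0% and 82.4%, so the carry-over between replicates was near the background. No summit of any of the 3 lists fell in a stretch of 20 kb or more around 43 of them, against 21.9% of other genes.

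The median stretch around the 78 genes was 26986.5 bp, against 5113 bp around other genes and 4780.5 bp around those of the same span range. The 56 genes lay in 49 separate stretches of 20713 to 76319 bp, so they are not independent of each other. The examples were picked with their values in view. The longest stretch, 76319 bp in the pooled list, 77965 bp in replicate 1 and 76231 bp in replicate 2, held rpl-3, for a protein that reaches towards the catalytic centre of the large subunit. Around rpl-9 the stretch was 67100 bp in the pooled list, 66319 bp in replicate 1 and 62317 bp in replicate 2. Around rps-11 it was 67495 bp in the pooled list and 71419 bp in replicate 2, but 39114 bp in replicate 1. Around rpl-29 it was 65245 bp in the pooled list and 54282 bp in replicate 1, but 34767 bp in replicate 2, so the length of these stretches differs between the lists. The 3 genes rpl-36, rps-14 and rps-21 shared one of 55154 bp. The pairs rpl-14 and rpl-24.2, rpl-41.1 and rpl-41.2, and rps-10 and rpl-24.1 each shared another.

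**Figure D4:**
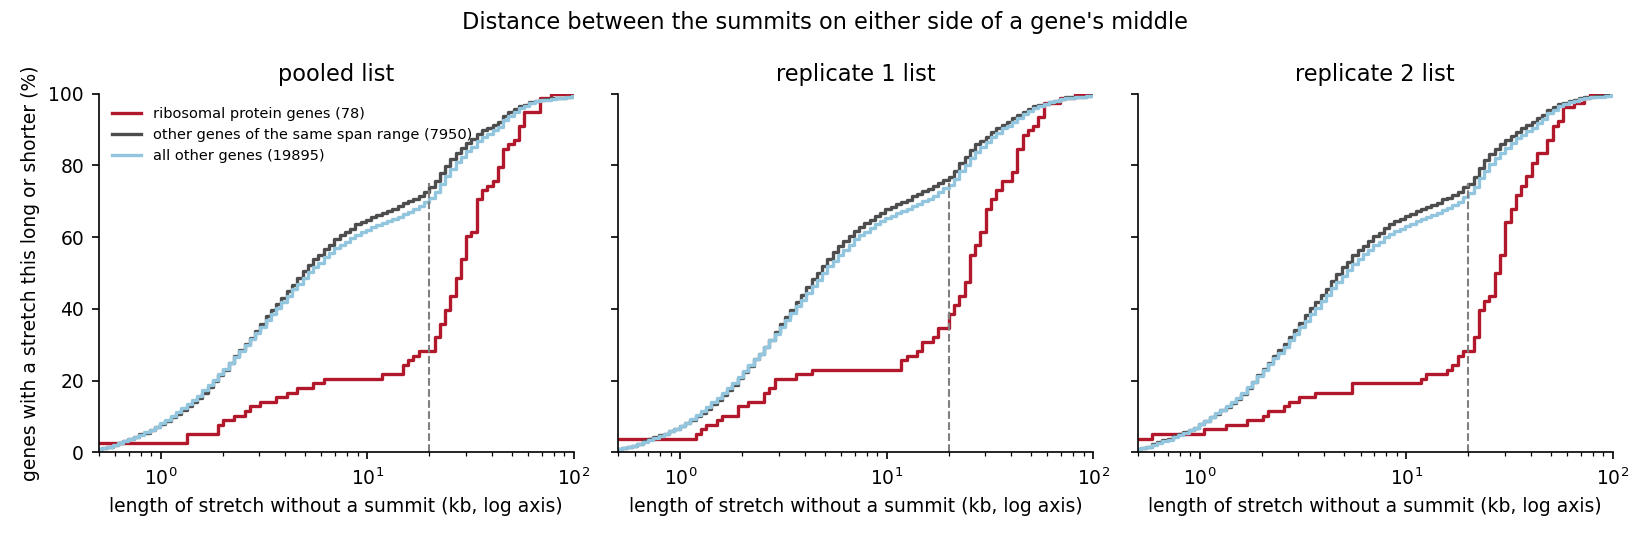
Share of genes (%) whose summit-free stretch is at most as long as the value on the x axis (kb, log axis), for the ribosomal protein genes, other genes of the same span range and all other genes, in each list; the dashed line marks 20 kb. At 20 kb the pooled curve of the ribosomal protein genes leaves 56 of 78 genes to its right, against 29.0% of all other genes.

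Within these stretches the quartiles of the distance to the nearer end lay closer together for ribosomal protein genes than for other genes, as a description made after the values were seen. The distance from the middle of the gene to the nearer summit had a median of 10915.5 bp, with quartiles of 9591 and 12685.8 bp, over the 56 genes, against a median of 8069.5 bp with quartiles of 3931.75 and 12495.8 bp over 5772 other genes in such stretches. Replicate 1 gave a median of 10805 bp over 48 genes and replicate 2 one of 10661 bp over 56. The genome as a whole held 939 pooled stretches of 20 kb or more, which make up 31.1% of its nuclear length.

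Stretch lengths fell off unevenly over the genome. There were 601 pooled stretches of 8 to 12 kb, 245 of 12 to 16 kb and 217 of 16 to 20 kb, and then 275 of 20 to 24 kb and 188 of 24 to 28 kb. Whether read depth in the control, mapping or the peak caller's settings go with these stretches was not tested, since the lists hold peaks only.

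Other genes of translation, taken from lists of names, were set beside them. None of the 6 elongation factor genes matched had a peak in any of the 3 lists, against a mean of 62.3% of like genes in the pooled list, and all 6 lay in a pooled stretch of 20 kb or more. Of 70 mitochondrial ribosomal protein genes, whose products build the ribosome of the mitochondrion, 32 had a pooled peak against 55.9% of like genes, and 32 lay in such a stretch. Of 22 nucleolar and RNA polymerase I genes 11 had a pooled peak against 65.8% of like genes, of 33 initiation factor genes 18 against 61.1%, and of 32 aminoacyl-tRNA synthetase genes 23 against 66.7%. In stretches of 20 kb or more lay 12 of the nucleolar, 11 of the initiation factor and 9 of the synthetase genes. The groups differ in gene length, and the differences between them were not tested.

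The highest pooled signals of these groups lay at ife-5, a cap-binding protein gene (45.2, rank 36), nog-1, a nucleolar GTPase gene (41.9, rank 48), mrpl-1, of the mitochondrial large subunit (39.7, rank 70), and dars-1, the aspartyl-tRNA synthetase gene (37.4, rank 120). All 4 had their best summit in their own coding exon. These signals were above the 35.5 of rps-6.

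**Figure D5:**
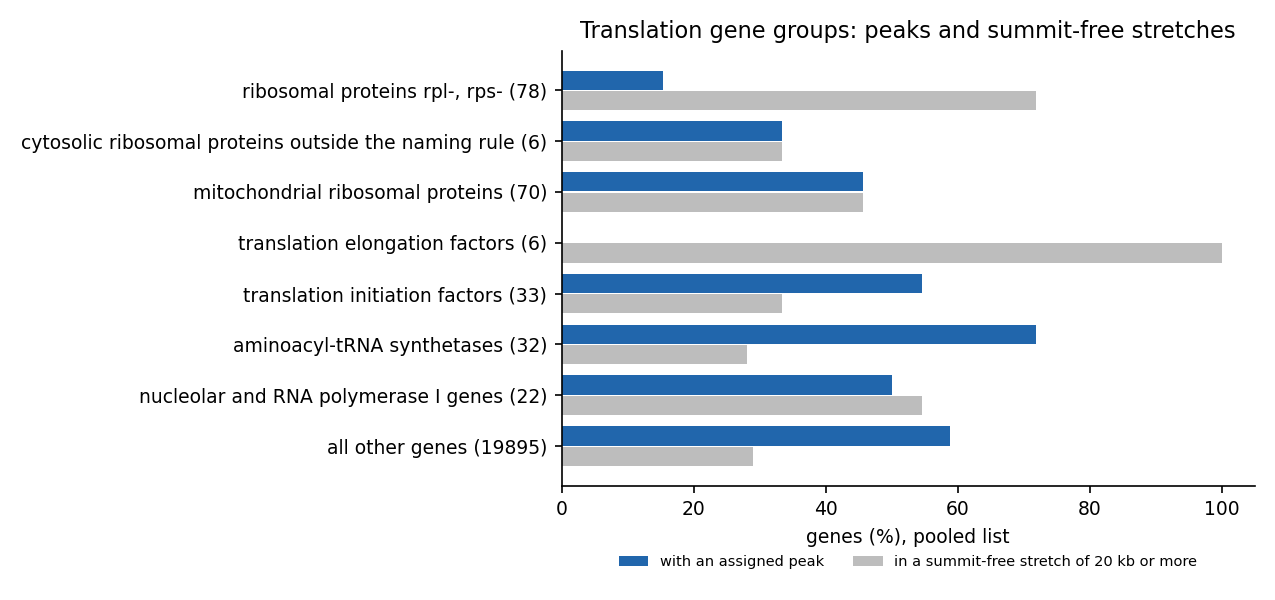
Share of genes (%, pooled list) with an assigned peak (blue) and in a summit-free stretch of 20 kb or more (grey), for the ribosomal protein genes, other groups of translation genes and all other genes, with the number of genes in brackets. The ribosomal protein genes are at 15.4% and 71.8%, the elongation factors at 0% and 100%, and all other genes at 58.9% and 29.0%.

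The naming rule leaves out some cytosolic ribosomal proteins. Of 6 named in a list, rla-0, rla-1, rla-2, ubl-1, ubq-2 and rack-1, 2 had a pooled peak. The peak of rla-2, of the ribosomal stalk, was in its own coding exon (20.3, rank 8410). The peak of rla-1 (27.9, rank 1381 in the pooled list, 540 in replicate 1 and 6323 in replicate 2) peaked within the coding sequence of the neighbouring Y37E3.8. RefSeq, on the same assembly, names 78 nuclear protein-coding genes rpl- or rps- and a number; 75 match a member by position. The other 3 are Y37E3.8, named rpl-27A there, W01D2.1, named rpl-37.1, and ubl-1, named rps-27A. Of these only Y37E3.8 had a pooled peak, the one assigned to rla-1, and W01D2.1 lay in a pooled stretch of 40275 bp and ubl-1 in one of 22669 bp.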

How the data were processed

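NFYA-1 ChIP-seq was measured in 2 biological replicates of 1 group, grouped and numbered as the labels give them. The authors deposited peak lists on ce10 and ce11; only those on ce11 were used here. According to the descriptions deposited with the files, peaks were called for each replicate and on both pooled, each from alignments and a shared control, and a final list was thresholded with the irreproducible discovery rate. Which aligner and peak caller were used is not stated in the labels or files used here. Each peak carries a signal value written by the authors' peak caller, on a scale not given, which was used to rank peaks within a list only. Ranks count the 26 (pooled) or 27 (each replicate) mitochondrial peaks of a list. The lists give no read counts, so the depth is unknown, and intervals cover the counting of genes only.

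Genes, starts and coding exons came from Ensembl release 115 and sequence from the RefSeq copy of the same WBcel235 assembly. Spans, like genes, percentiles (ties at the middle) and intervals were computed with scipy 1.17.1, pandas 2.3.3 and numpy 2.4.6 under Python 3.11.15, figures were drawn with matplotlib 3.10.9, and the assignment was checked on simulated peaks. A test across samples cannot be had from 1 group of 2, and none was made over genes. The alternatives were other windows, overlap in place of summits, the 10000 strongest peaks, tighter or looser likeness and each replicate list alone.

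Members and lists were chosen with earlier results of these data known. Named were up to 15 members with the highest pooled signal, those among the 1000 strongest peaks of any list, 4 of those without any peak by lowest number, the 3 with the largest rank difference between replicates, and up to 3 of each other list.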

Additional observations from a re-analysis of the deposited data

How the results depend on the processing

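The count of ribosomal protein genes with a pooled peak (12) was 9 to 17 under 7 alternatives, and below the share of other and of like genes in each. The median percentile among like genes (25.6) was 33.6 with start windows alone, 34.6 with gene bodies alone, 31.0 with windows of 500 and 100 bp, 24.0 with overlap of 1 bp, 39.1 with the 10000 strongest peaks, 25.1 with tighter likeness, 27.1 with length alone and 25.7 with GC content added after the data were seen. In the replicate lists alone it was 25.8 to 25.9. The best summit in an own coding exon (8 of 12) was 4 of 9 with start windows alone and 9 of 9 with gene bodies alone. It was 9 of 10 with the shorter windows, 8 of 13 with overlap and 7 of 10 among the 10000 strongest. The shares of other genes with a peak moved too, at 19.9%, 68.7%, 60.4%, 49.1% and 57.8% in the same order. Overlapping replicate peaks (9) fell to 5 with summits within 100 bp, 4 among the 10000 strongest and 5 with start windows alone. The share of other genes fell as well, from 38.9% to 29.9%, 11.2% and 15.8%. CCAAT at the summit (3) was 2 to 4. Within 100 bp of the summit it was 3 of 12, against 39.8% of other genes with a peak. Within 25 bp it was 2 of 12, against 11.95%. Stretches of 30 kb or more held 31 genes against 16.2% of other genes, and those of 15 kb or more 59 against 33.4%. The cause of these differences was not tested. The replicate lists alone gave 14 to 17 genes with a peak, 6 of 17 and 7 of 14 best summits in an own coding exon, 2 of 17 and 4 of 14 with CCAAT and 48 to 56 in stretches of 20 kb or more. No paired analysis was possible because there is only 1 group. The unknown depth limits how far a missing peak can be read as missing binding.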
